A study of Mus musculus with 15 samples.

Results

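The genes described here are the DNA replication and repair genes, a group of 58 named genes that license origins, unwind and copy DNA, supply nucleotides, package the new strand and repair it, together with the E2F factors and E-type cyclins that control them. Membership was set by gene name alone. Of the 58 genes, 32 had a row among the 4567 genes listed in at least 1 of the deposited comparison tables, and the other 26 were not analysed here. The RNA came from sorted mouse T cells in a model of acute graft-versus-host disease, with 5 groups of 3 libraries labelled as biological replicates. The control groups were Flica-negative CD4 and CD8 T cells of untransplanted, unirradiated C57Bl6 mice at day 0. The other groups were C57Bl6 donor T cells recovered from the spleens of allogeneic Balb/C recipients at day 7, after 8 Gy of irradiation and transfer of donor T cells with bone marrow. These comprised CD4 Flica-negative, CD8 Flica-negative and CD8 Flica-positive cells, and there was no CD4 Flica-positive group. Cells were sorted on Flica, a fluorescent label for active caspase-1, the protease of the inflammasome. Splenocytes of several recipients were pooled for each day 7 sort, a control sort could come from a single mouse, and the labels give no ages. Transplantation, irradiation of the recipient and the allogeneic response cannot be told apart in a day 7 to day 0 comparison.

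A cell that leaves quiescence must prepare its origins before S phase. ORC and CDC6 load the MCM helicase onto DNA, and CDC45, GINS and MCM10 convert it into a moving fork. Primase, the RFC clamp loader, flap endonuclease and ligase then make and join the new strands, while ribonucleotide reductase, thymidylate synthase and thymidine kinase supply deoxynucleotides. Transcription of many of these genes is driven at the G1 to S transition by activating E2F factors, which the retinoblastoma family restrains in resting cells, and E2F7 and E2F8 later repress the same genes. T cells that meet alloantigen divide rapidly, so this programme is a common readout of proliferation in them.

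The tables were cut by their authors, which fixes part of what can be read from them. A gene has a row in a table where the adjusted p of that comparison was below 0.05 and its log2 fold change was beyond 2 in either direction. All 32 measured genes were listed for CD8 Flica-positive cells against control, 24 of them also for CD8 Flica-negative cells against control and 16 for CD4 Flica-negative cells against control. None was listed for Flica-positive against Flica-negative cells. A change past these thresholds in at least 1 comparison was therefore a condition of being measured. All 32 genes met it in CD8 Flica-positive cells over control, so the counts of members that rose over control are a description. The 26 genes without a row include most subunits of the MCM ring (Mcm2, Mcm3, Mcm4, Mcm6 and Mcm7), Pcna and the catalytic polymerase subunits Pola1, Pold1 and Pole. The others are Cdt1, Orc6, Gins2, Prim2, Pole2, Rfc5, Slbp, Dnmt1, Chaf1a, Wdhd1, Timeless, Tipin, Blm, Brca2, Fanca, Fanci and Ccne1.

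Counts over the listed genes summed to between 2143579 and 11046043 per library. Of 11 T cell markers only Cd8a had a row, at 18353 to 21642 normalized counts in CD8 control cells, 9348 to 14967 in both CD8 day 7 groups and 4.41 to 117 in the CD4 groups, so the sort by lineage could be checked on this gene alone. Markers of neutrophils, which the T cell gates should leave out, summed to 13.4 to 111 normalized counts in the control libraries, 2217 to 6670 in CD4 Flica-negative, 9813 to 15371 in CD8 Flica-negative and 172198 to 332575 in CD8 Flica-positive libraries. B cell markers summed to 5797 to 9011 in control, 135 to 232 in CD4 Flica-negative, 605 to 940 in CD8 Flica-negative and 4085 to 8538 in CD8 Flica-positive libraries. Erythroid marker sums were 1393 to 110389 in the last, 1874 to 9136 in control and 271.8 to 3555 in the day 7 Flica-negative libraries. The granulocyte progenitor genes Elane, Ctsg and Ms4a3 were at 0 in every control library. Mitochondrial genes held 42.8 to 51.7% of the listed counts in the Flica-positive libraries and 15.1 to 28.8% in the others. The part of these differences in the results below was not tested beyond the values given beside them. In bulk RNA, a larger fraction of cells in S phase and more RNA of these genes per cell cannot be told apart.

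In CD8 Flica-negative cells at day 7, 32 of the 32 measured genes were higher than in CD8 control cells by edgeR's quasi-likelihood test at an adjusted p below 0.05, against 37.6% of the 4556 listed genes tested. The changes on the log2 scale ran from 1.31 for Rfc4 to 6.20 for E2f7, with a median of 2.73 beside 0.69 for the listed genes as a whole. The 3 day 7 libraries lay above the 3 control libraries for each of the 32 genes, and 40.8% of listed genes were higher in that sense. The RNA level did not rise equally in the 3 day 7 libraries. CD8 Flica-negative replicate 1 was the lowest of the 3 for 32 of 32 genes and replicate 3 the highest for 29.

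**Figure D1:**
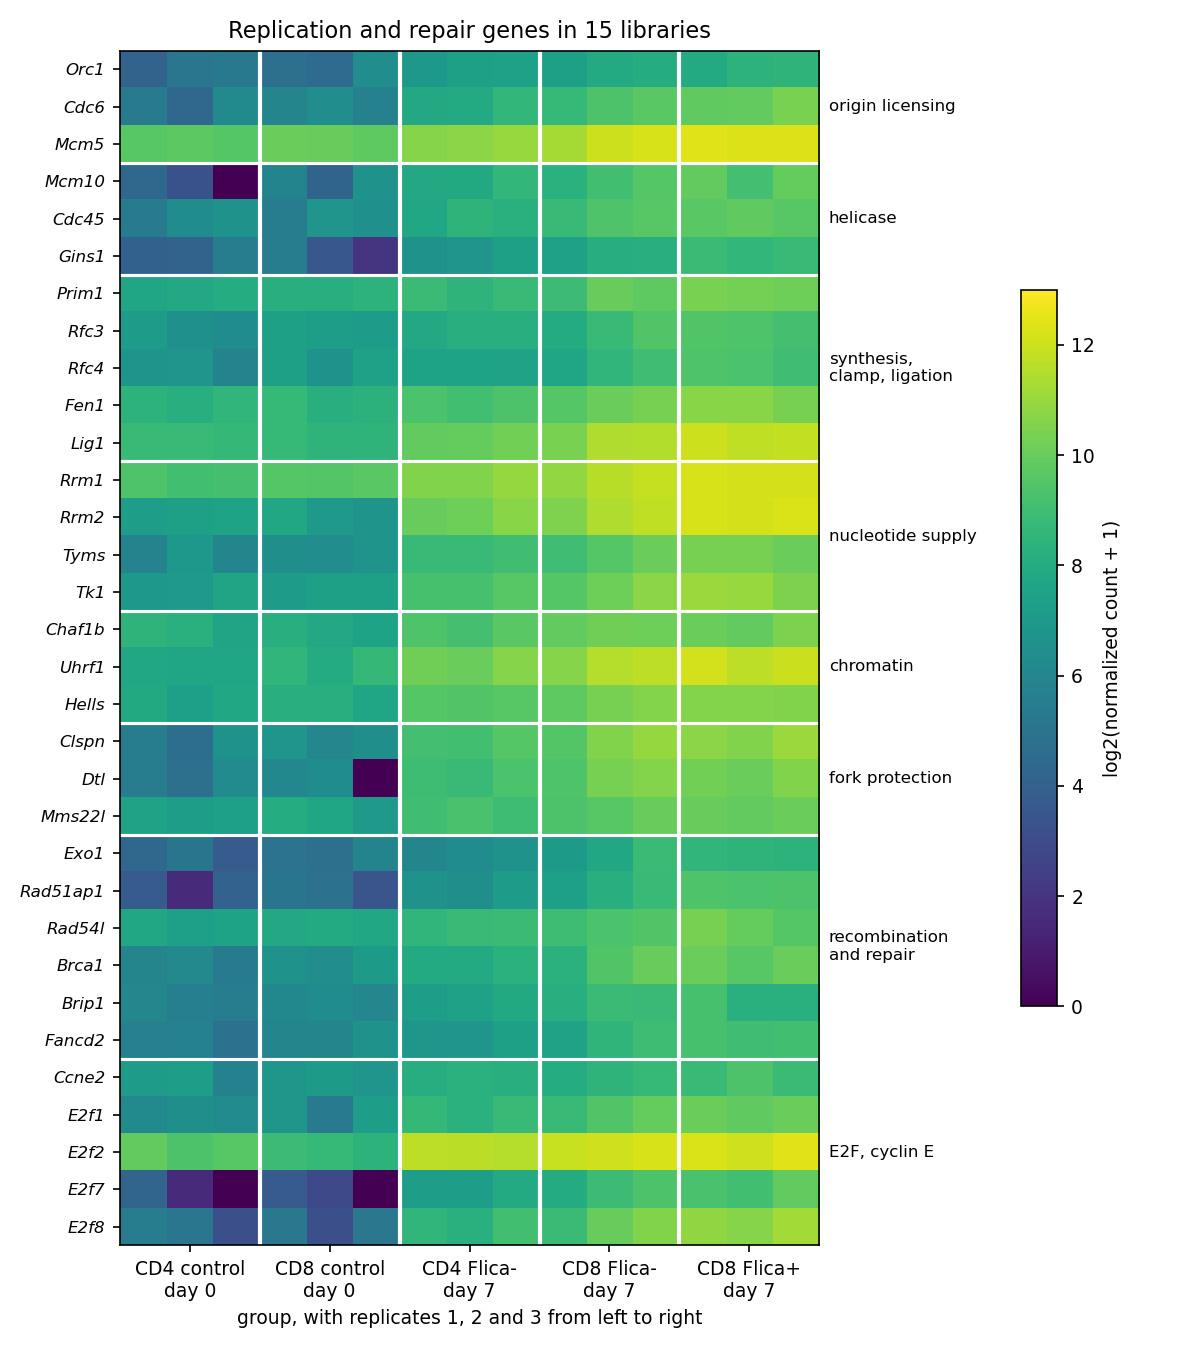
Level of each of the 32 measured replication and repair genes in each of the 15 libraries, as the log2 of the normalized count plus 1, with genes grouped by role and replicates 1 to 3 of each group from left to right. The day 7 libraries are brighter than the control libraries for every gene, and among the CD8 Flica-negative libraries the first is the darkest.

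Before the single genes are described, a stretch of the promoter is shown for 8 of them that carry the longest of the searched E2F motifs before the start site, since E2F factors are members of the group themselves. The windows ran from 250 bases before to 50 bases after each RefSeq transcription start in GRCm38.p6, and 28 of the 32 genes had an entry, with 34 windows in all. Ccne2, Exo1, Fancd2 and Gins1 had none. Each sequence below has 70 bases in the direction of transcription, lower case with the E2F motif, or its reverse complement, in capitals. Orc1 lies at chr4:108579384-108579453 (plus strand), Cdc6 at chr11:98907983-98908052 (plus), Mcm5 at chr8:75109326-75109395 (plus), Rfc3 at chr5:151651209-151651278 (minus), Uhrf1 at chr17:56304098-56304167 (plus), Hells at chr19:38930898-38930967 (plus), Dtl at chr1:191575545-191575614 (minus) and E2f7 at chr10:110745211-110745280 (plus).
Orc1: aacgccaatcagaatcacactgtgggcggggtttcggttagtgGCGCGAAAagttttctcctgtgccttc
Cdc6: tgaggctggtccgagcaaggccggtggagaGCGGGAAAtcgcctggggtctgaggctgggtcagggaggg
Mcm5: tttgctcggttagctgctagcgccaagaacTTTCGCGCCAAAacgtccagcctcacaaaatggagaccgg
Rfc3: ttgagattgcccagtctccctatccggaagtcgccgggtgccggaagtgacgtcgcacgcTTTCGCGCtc
Uhrf1: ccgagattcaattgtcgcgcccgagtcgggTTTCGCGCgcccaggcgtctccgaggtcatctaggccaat
Hells: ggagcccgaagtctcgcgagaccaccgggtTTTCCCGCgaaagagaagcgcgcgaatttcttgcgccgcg
Dtl: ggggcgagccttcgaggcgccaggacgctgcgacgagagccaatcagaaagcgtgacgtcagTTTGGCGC
E2f7: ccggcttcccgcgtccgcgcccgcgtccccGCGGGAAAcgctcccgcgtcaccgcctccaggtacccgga

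The letters searched were TTTCCCGC, TTTCGCGC, TTTGCCGC and TTTGGCGC on both strands. They were found in 11 of the 34 windows of the replication and repair genes (32.4%), in 1 of 28 windows of the mitosis and spindle genes (3.57%) and in 744 of all 32851 windows (2.26%). The other 3 of the 11, Clspn, E2f2 and Lig1, had the match after the start site and are not printed. The same letters without the first T, a shorter form of 7 letters that every match of the longer form contains, were present in 24 of 34 windows (70.6%), in 5 of 28 (17.9%) and in 9.57% of all windows. In Mcm5 the capitals run over 12 bases, because matches on the opposite strands overlap. The mitosis genes differed in the letters they carried. The cell cycle homology region TTTGAA, a motif of late cell cycle genes, stood in 21 of their 28 windows (75.0%) and in 4 of the 34 (11.8%), against 17.9% of all windows. The NF-Y box CCAAT was found in 22 of 28 (78.6%), 21 of 34 (61.8%) and 37.4% of all windows. For contrast with the E2F windows, the motif TTTGAA, or its reverse complement where it lies on the other strand, is in capitals in the promoters of Cdc20, the activator of the anaphase-promoting complex (chr4:118437344-118437413, minus strand), and Kif11, a spindle motor (chr19:37376312-37376381, plus strand).
Cdc20: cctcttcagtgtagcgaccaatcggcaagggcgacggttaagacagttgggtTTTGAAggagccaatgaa
Kif11: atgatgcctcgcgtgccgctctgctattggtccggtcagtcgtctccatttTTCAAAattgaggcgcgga
A match is a run of letters and not a measured binding site, and these libraries did not measure binding.

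**Figure D2:**
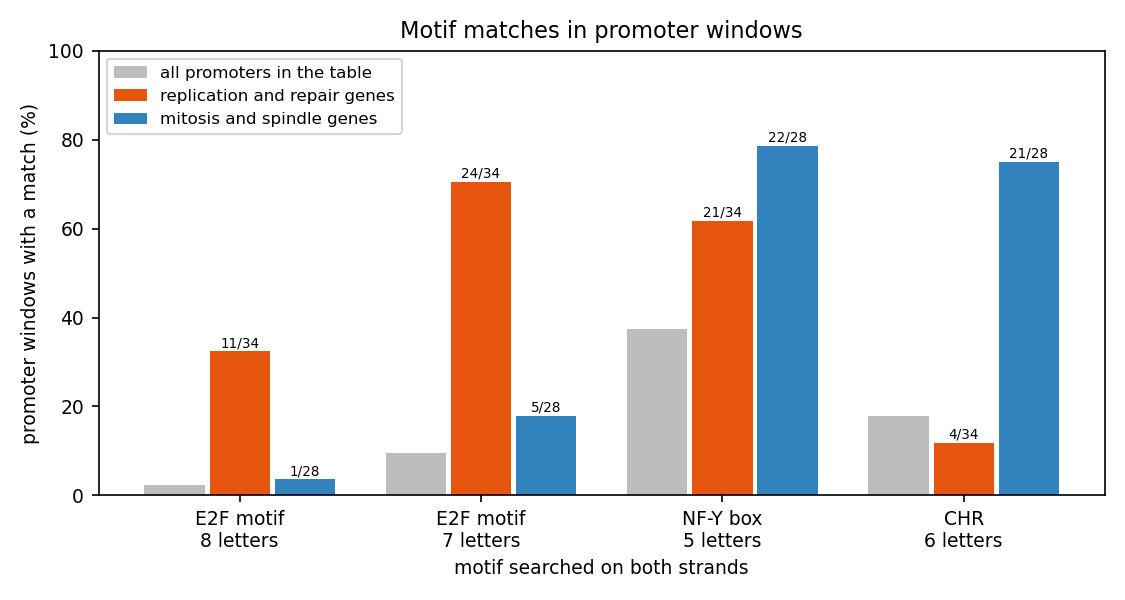
Share of promoter windows with at least 1 match to each motif, on either strand, for the replication and repair genes (34 windows), the mitosis and spindle genes (28 windows) and all 32851 windows of the table. The E2F motifs stand in 32.4% (longer) and 70.6% (shorter) of the replication and repair windows, and the cell cycle homology region (CHR) in 75.0% of the mitosis windows.

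The origin licensing genes with a row were Orc1, Cdc6 and Mcm5. Cdc6, the loader of the MCM ring, had 59.0, 83.3 and 51.0 normalized counts in the CD8 control libraries and 413, 653 and 826 in the CD8 Flica-negative libraries, a log2 change of 3.29 ± 0.36 (SE, adjusted p = 1.94e-05). The lowest day 7 library was thus well above the highest control. Mcm5, a subunit of the ring, was at 1032, 995 and 891 and rose to 2411, 4103 and 4760.3, a change of 1.95 ± 0.24 (adjusted p = 5.13e-05). It was already abundant in resting cells and changed least of the 3. Among the genes that activate the helicase, Gins1, a subunit of the GINS complex, had 43.2, 10.7 and 2.89 normalized counts in control and 175, 269.7 and 288 at day 7, a change of 3.67 ± 0.74 (adjusted p = 0.00145). The control values rest on 49, 12 and 3 reads, and the spread among them is wide. Cdc45, the helicase cofactor, moved from 44.1, 107 and 91.4 to 434, 677 and 779, the smallest change of the role at 2.96 ± 0.39 (adjusted p = 7.97e-05).

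The genes for synthesis and ligation had smaller changes on the whole. Lig1, the ligase that joins Okazaki fragments, had 415, 350.1 and 350.1 normalized counts in control and 1334, 2779 and 2926 at day 7, a change of 2.66 ± 0.30 (adjusted p = 2.32e-05). The control libraries were close together while the day 7 libraries differed, replicate 1 being the low library. Rfc4, a subunit of the clamp loader, changed least of all measured members. It was at 168, 99.4 and 172 in control and at 199, 370.4 and 517 at day 7, a change of 1.31 ± 0.40 (adjusted p = 0.0149). Day 7 replicate 1 was close to the control range, and the difference no longer passed with TMM scaling or without day 7 replicate 3. Rfc4 shares 12.7% of its exon bases with Eif4a2 on the other strand, and Fen1, the flap endonuclease, 78.8% with Gm10143. The strand setting of the counting was not given in the sources used here, so reads of such pairs cannot be told apart, which also touches Ccne2, Rad54l, E2f8 and Orc1 at 10.8 to 17.4% of their exon bases.

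The nucleotide supply genes differed in how far they rose. Rrm2, the regulated subunit of ribonucleotide reductase, had 217, 124 and 107 normalized counts in control and 1418, 2777 and 3398 at day 7, a change of 4.08 ± 0.39 (adjusted p = 7.52e-06). Its partner Rrm1 changed less, by 1.90 ± 0.24 (adjusted p = 6.01e-05), and Tyms and Tk1, the thymidylate enzymes, lay between them at 3.10 and 2.90. Of the chromatin genes, Uhrf1, which recruits the maintenance methyltransferase to new DNA, moved from 374, 254 and 400.1 to 1618, 3016 and 3362. This was a change of 2.96 ± 0.31 (adjusted p = 1.33e-05), and Chaf1b, a subunit of the CAF-1 histone chaperone, had the smallest of the role at 2.20 ± 0.25 (adjusted p = 2.8e-05). Hells, a chromatin remodeller, was at 2.22.

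Several fork and repair genes rose from low control levels. Dtl, the CUL4 adaptor that removes CDT1 in S phase, had 65.2, 78.8 and 0 normalized counts in control and 679.7, 1268 and 1562 at day 7, a change of 4.60 ± 0.88 (adjusted p = 0.00105). The 0 in control replicate 3 allows up to 3 counts, and its distance from the other control libraries widens the error. Mms22l, which acts in recombination at stalled forks, had the smallest change of that role at 2.02 ± 0.32 (adjusted p = 0.000265). In recombination and repair, Rad51ap1, a DNA-binding protein of homologous recombination, moved from 31.7, 27.8 and 9.62 to 159.8, 286 and 450.5, a change of 3.69 ± 0.56 (adjusted p = 0.000197). Rad54l, a DNA translocase, changed least of the role at 1.43 ± 0.26 (adjusted p = 0.000634). Exo1, Brca1, Brip1 and Fancd2, which act in end resection, homologous recombination and crosslink repair, lay between 2.25 and 2.85.

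The genes of S phase entry control held the largest changes. E2f7, a repressor of E2F targets, had 12.3, 6.27 and 0 normalized counts in CD8 control cells and 259, 481 and 671 in CD8 Flica-negative cells, a change of 6.20 ± 0.76 (adjusted p = 4.23e-05) or 73.3-fold. The control counts were 14, 7 and 0 reads, so the size of the fold rests on a few reads while its direction does not. E2f8, the related repressor, rose by 5.22, the next largest change of the group. E2f2, an activating E2F, started from 484, 423 and 337 and reached 3873, 4226 and 4813, a change of 3.38 ± 0.20 (adjusted p = 3.16e-07). It was the most even of the highly abundant members among the 3 day 7 libraries. Ccne2, a cyclin E that drives S phase entry with CDK2, had 116, 136 and 109 in control and 265, 352 and 416 at day 7, a change of 1.52 ± 0.31 (adjusted p = 0.00172).

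The CD4 Flica-negative cells showed the same direction, with smaller fitted changes for 30 of the 32 genes. Since all 32 genes had a row through a CD8 comparison, the count of smaller changes is a description. Of the 32 genes, 32 were higher at day 7 than in CD4 control cells, against 31.6% of the 4517 listed genes tested, with changes from 0.86 for Prim1 to 5.0 for Mcm10 on the log2 scale. The median was 1.99, beside 0.14 for the listed genes as a whole. For 32 of 32 genes the 3 day 7 libraries lay above the 3 control libraries, as for 35.4% of the listed genes. With TMM scaling Ccne2, Prim1 and Rfc4 no longer passed.

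Mcm10, which helps the helicase to start, had the largest fitted change in CD4 cells but a poorly measured base. Its CD4 control libraries held 19.0, 8.70 and 0 normalized counts (17, 9 and 0 reads) and its CD4 Flica-negative libraries 231, 240.0 and 392, a change of 5.0 ± 0.73 (adjusted p = 8.07e-05). Prim1, the primase catalytic subunit, and Fen1 had the smallest changes, at 0.86 ± 0.25 (adjusted p = 0.00986) for Prim1. E2f7 again had a large change, from 17.9, 1.93 and 0 to 151, 155 and 248, or 4.86 ± 0.86 on the log2 scale (adjusted p = 0.00039). Dtl, after E2f8 at 3.85, rose by 3.44 ± 0.37 (adjusted p = 5.66e-06), with 42.4, 27.1 and 75.6 normalized counts in control and 506, 445 and 635 at day 7. The groups did not overlap for any of these genes.

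In the other roles, Rrm2 moved from 157, 168 and 187 to 1008, 1118 and 1663, a change of 2.88 ± 0.24 (adjusted p = 6.52e-07), and Rrm1 by 1.47 ± 0.20 (adjusted p = 4.45e-05). Uhrf1 moved from 216, 208 and 202 to 1157, 1060.3 and 1602, a change of 2.61 ± 0.22 (adjusted p = 7.34e-07). These control libraries were tight, so the errors are smaller than for Mcm10 or E2f7. Cdc6 rose by 2.68 ± 0.46 (adjusted p = 0.000297), from 41.3, 19.3 and 72.9 to 233, 243 and 384. Mcm5 had the smallest licensing change, 1.14 ± 0.18 (adjusted p = 0.000183), from 788, 859.7 and 749.8 to 1568, 1682 and 2019. Licensing genes therefore kept the order seen in CD8 cells, with Mcm5 below Cdc6. Rad51ap1 changed by 3.43 ± 0.66 (adjusted p = 0.000762), from 12.3, 1.93 and 16.0 to 101, 89.3 and 138, and Rad54l by 1.16 ± 0.25 (adjusted p = 0.00175). Cdc45 rose by 1.97 ± 0.39 (adjusted p = 0.000909), Rfc3, a clamp loader subunit, by 1.39 ± 0.32 (adjusted p = 0.00278), Chaf1b by 1.31 ± 0.27 (adjusted p = 0.00109), Mms22l by 1.72 ± 0.23 (adjusted p = 4.16e-05) and Ccne2 by 1.33 ± 0.38 (adjusted p = 0.0102).

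The level reached at day 7 was lower in CD4 than in CD8 Flica-negative cells. Of the 32 genes, 27 were lower in CD4 cells and none higher, against 12.7% of the 4483 listed genes lower and 9.99% higher, and the median log2 difference was -0.97 beside -0.13 for the listed genes. In 23 of the 32 the CD4 libraries all lay below the CD8 libraries, as in 19.9% of the listed genes, and in none did they all lie above, as in 17.8%. All 32 genes had a row through CD8 Flica-positive cells over CD8 control, but only 16 through CD4 Flica-negative cells over CD4 control. Being measured thus leaned towards genes high in day 7 CD8 cells, and these counts and the median are a description. The number that passed depended on single libraries. It was 11 without CD4 replicate 2, 17 without CD4 replicate 1, 15 without CD8 replicate 3 and 16 without CD8 replicate 2, and it was 10 when the spread was estimated over all 15 libraries. The neutrophil marker sum also differed between these groups, with 6 of 8 neutrophil markers lower in CD4 cells, and its part in the result was not tested.

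Exo1, the exonuclease of resection and mismatch repair, differed most. It had 62.6, 79.2 and 100.1 normalized counts in CD4 and 136, 211 and 471 in CD8 Flica-negative cells, a difference of -1.76 ± 0.40 on the log2 scale (adjusted p = 0.00336). The groups did not overlap, the CD8 libraries spread more widely, and the difference did not pass without CD8 replicate 3. Mcm5 differed by -1.10 ± 0.21 (adjusted p = 0.000594), since the CD4 libraries ended at 2019 and the CD8 libraries began at 2411. E2f2 had a small difference of -0.44 ± 0.15 (adjusted p = 0.0356), with 3342, 3213 and 2954 in CD4 and 3873 to 4813 in CD8 cells. This call was lost with TMM scaling and in the fit over all 15 libraries. It was also lost without CD4 replicate 1, 2 or 3 and without CD8 replicate 2 or 3. The 5 genes that did not pass were Ccne2, Mms22l, Orc1, Rad54l and Rfc3. For Ccne2 the difference was -0.25, with a 95% interval from -0.76 to 0.26, so a lower level in CD4 cells by up to 0.76 is within its error.

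In resting cells the lineages differed at few of these genes. Between CD4 and CD8 control cells 1 of the 32 genes was higher in CD4 cells, against 7.01% of the 4322 listed genes, and 2 were lower, against 5.81%. E2f2 was at 930.2, 652 and 778 normalized counts in CD4 control cells and 484, 423 and 337 in CD8 control cells, a difference of 0.92 ± 0.20 on the log2 scale (adjusted p = 0.00081). All 3 CD4 libraries were above the CD8 libraries. Uhrf1 was lower in CD4 cells by 0.72 ± 0.24 on the same scale (adjusted p = 0.0466), a call lost with DESeq2, with the filter on low means, in the fit over all 15 libraries and without any 1 of 5 of the 6 control libraries. Mcm10 was lower too, with a difference of -2.69 ± 0.86 (adjusted p = 0.0316), but with 17, 9 and 0 reads in CD4 control and 65, 19 and 107 in CD8 control cells, and this call was lost with the filter and without CD4 replicate 3, CD8 replicate 1 or CD8 replicate 3.

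The test of the difference between the CD4 and the CD8 responses passed for 2 of the 32 genes, E2f2 and Lig1, in both with a smaller rise in CD4 cells. Over the 4567 listed genes the difference, CD4 minus CD8, passed below 0 for 4.6% and above 0 for 5.65%. These shares count the sign of the difference, whether a gene rose or fell. The fitted difference was below 0 for 30 of the 32 genes and for 2408 of the 4567 listed genes, with medians of -0.60 and -0.12. Of the 32 genes, Orc1 and Mcm10 were the exceptions. All 32 genes had a row through a CD8 comparison and 16 through the CD4 comparison, so these signs and the median are a description. E2f2 rose by 2.01 ± 0.19 (adjusted p = 1.38e-06) in CD4 and by 3.38 in CD8 cells, a difference of -1.37 ± 0.26 (adjusted p = 0.00209). Its starting level was higher in CD4 cells and its day 7 level lower. Lig1 went from 437, 452 and 408 to 927, 973 and 1221 in CD4 cells, a rise of 1.27 ± 0.20 (adjusted p = 0.000148) against 2.66 in CD8 cells, a difference of -1.39 ± 0.36 (adjusted p = 0.0169). Mcm10, with the larger fitted rise in CD4 cells, had a difference of 1.81 ± 0.95 that did not pass (adjusted p = 0.241). Neither call passed under TMM scaling, nor did that of Lig1 without CD8 Flica-negative replicate 2.

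**Figure D3:**
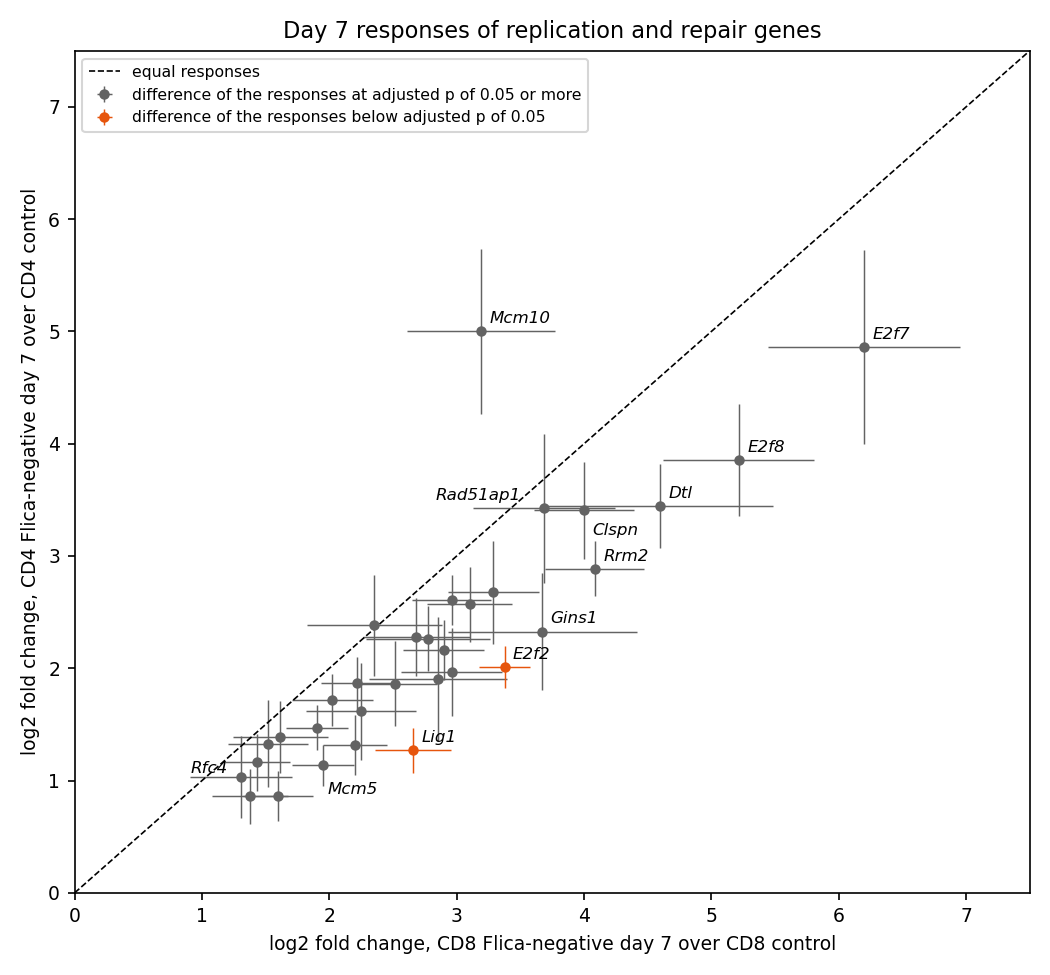
Log2 fold change of each of the 32 genes at day 7 over control in CD8 Flica-negative cells (horizontal) and CD4 Flica-negative cells (vertical), with bars of 1 SE, and the line of equal responses dashed. Most genes lie below the line, Mcm10 lies above it with wide bars, and the 2 genes whose responses differed past the threshold, E2f2 and Lig1, are orange.

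CD8 Flica-positive cells, those with active caspase-1, carried these transcripts at the highest mean of the 5 groups for 32 of 32 genes, in the order CD4 or CD8 control, CD4 Flica-negative, CD8 Flica-negative and CD8 Flica-positive. Against CD8 control the 32 genes were higher in 32 cases, beside 46.8% of the 4564 listed genes, with changes from 2.02 to 6.76 and a median of 3.26 beside 2.04 for the listed genes. The groups did not overlap for any of the 32 genes, beside 48.2% of the listed genes higher and 31.2% lower without overlap. All 32 genes were listed for this comparison at the authors' thresholds, so these counts are a description. E2f7 changed most, from the control values above to 616, 527 and 945 normalized counts, 6.76 ± 0.85 on the log2 scale (adjusted p = 0.000166). Prim1 changed least, by 2.02 ± 0.23 (adjusted p = 9.96e-05). This comparison moved most with the scaling. TMM scaling shifted the median over the listed genes by -1.65, to 0.39, left 22 of the 32 genes higher and gave them a median of 1.62. With it 1232 of the 4564 listed genes were higher. The median of the 32 genes lay above that of the listed genes by 1.22 with the size factors and by 1.24 with TMM.

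Set against Flica-negative CD8 cells, the difference in the Flica-positive cells was small for these genes and depended on the scaling. The number of genes that passed also depended on a replicate block and on single libraries. In the main fit the difference passed for 2 of the 32 genes, both higher in Flica-positive cells. Of the 4478 listed genes 21.1% were higher and 2.72% lower. All 32 fitted differences were above 0, with a median of 0.56 beside 0.41 for the listed genes, and in 13 of the 32 genes the Flica-positive group lay wholly above the other, as in 30.5% of the listed genes, and in none wholly below, as in 13.7%. All 32 genes had a row through their rise over control in Flica-positive cells, 8 of them through that comparison alone. These signs and the median are therefore a description. With TMM scaling, which lowered the median over the listed genes by 0.55, none of the 32 genes passed. The 32 genes then had a median of 0.02, beside -0.14 for the listed genes, with 13 fitted differences below 0. TMM was computed over the listed genes alone, which the authors chose for change. Which scaling lies closer to the true levels was not tested.

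Rad51ap1 had 159.8, 286 and 450.5 normalized counts in Flica-negative and 684, 627 and 661 in Flica-positive cells, a difference of 1.14 ± 0.34 on the log2 scale (adjusted p = 0.0303). Rrm2 had 1418, 2777 and 3398 and 4801, 4657 and 4986, a difference of 0.93 ± 0.28 (adjusted p = 0.03). In both genes the Flica-positive libraries were tight and above every Flica-negative library, and Flica-negative replicate 1 was far below its fellows. The 95% intervals ran from 0.46 to 1.81 for Rad51ap1 and from 0.38 to 1.48 for Rrm2. Leaving out Flica-negative replicate 1 or 2, or Flica-positive replicate 1 or 2, left none of the 32 genes past the threshold. Without Flica-positive replicate 3 both calls were lost and Rad54l alone passed. Without Flica-negative replicate 3 there were 8, with Rad51ap1 and Rrm2 among them. In the fit over all 15 libraries Rad51ap1 was lost and Rrm1 gained. At the other end E2f2 differed by 0.18, with an interval from -0.20 to 0.56, and Brip1 by 0.02, with an interval from -0.64 to 0.67. These libraries could not exclude moderate differences in either direction for such genes. In the Flica-positive cells all 8 neutrophil and all 5 granulocyte progenitor markers were higher than in the Flica-negative cells, and the progenitor sum rose from 1031 to 1850 normalized counts to 11901 to 21655. All 4 macrophage and all 5 erythroid markers with a row were higher as well, and so were 4 of 6 B cell markers. Granulocyte progenitors also divide, and the part of the RNA of any of these cell types in the levels of the replication genes was not tested.

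**Figure D4:**
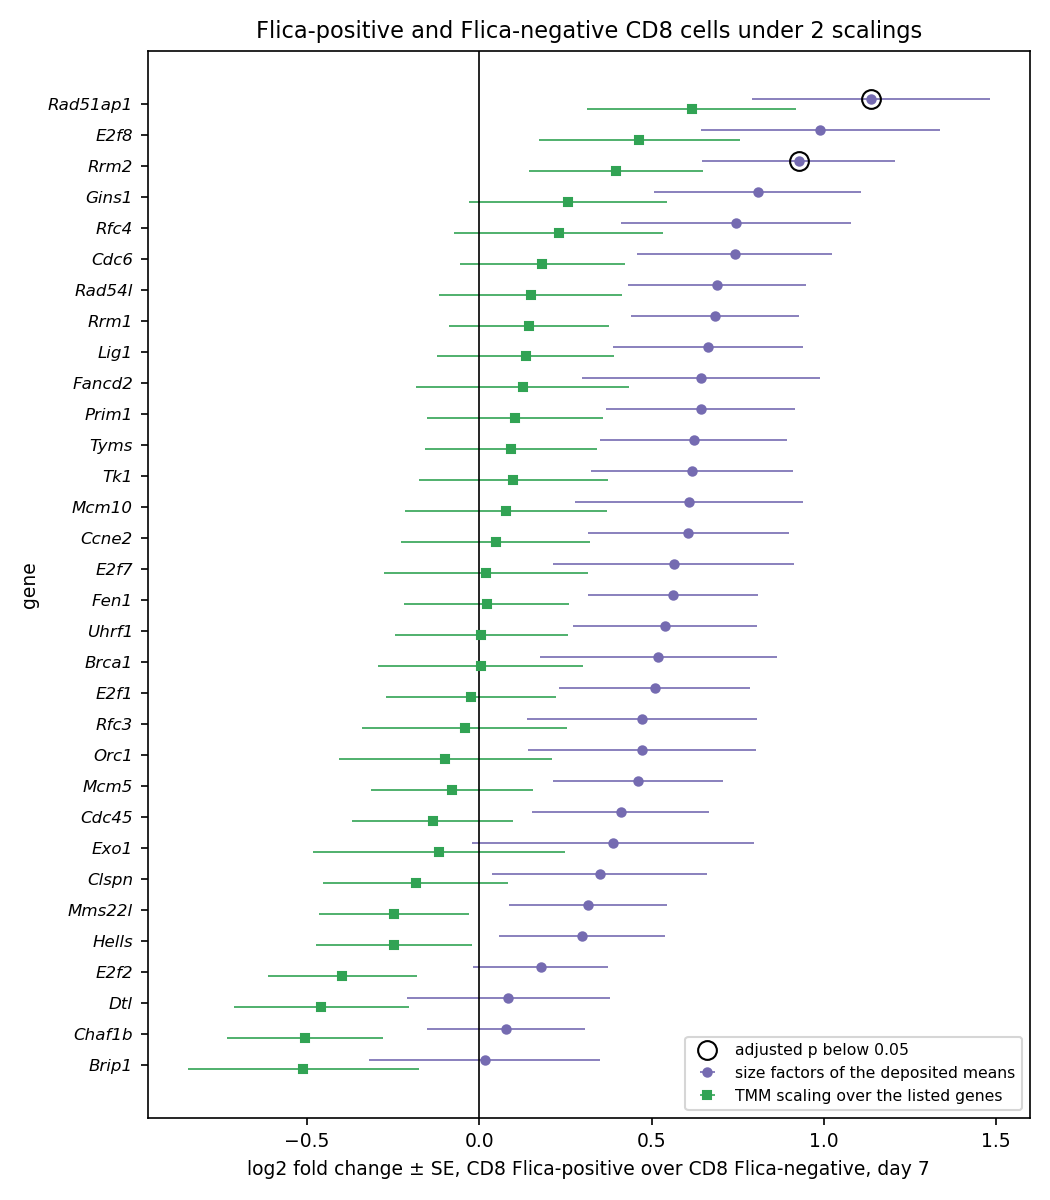
Log2 fold change of CD8 Flica-positive over CD8 Flica-negative cells at day 7 for each of the 32 genes, with bars of 1 SE, with the size factors behind the deposited means (circles) and with TMM scaling over the listed genes (squares). Every circle is above 0, 2 of them past the threshold, while 13 squares are below 0.

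The spread among libraries differed by group. The coefficient of variation had a median over the 32 genes of 35.7% in CD8 Flica-negative, 12.2% in CD8 Flica-positive, 17.3% in CD4 Flica-negative, 25.2% in CD8 control and 29.8% in CD4 control libraries. The mean log2 level over the genes ran from 6.25 to 6.57 in CD4 control, 6.54 to 6.97 in CD8 control, 8.55 to 8.91 in CD4 Flica-negative, 9.0 to 10.05 in CD8 Flica-negative and 10.11 to 10.25 in CD8 Flica-positive libraries. The highest CD8 Flica-negative library was thus just below the Flica-positive range, and the lowest was just above the CD4 Flica-negative range. The mitosis and spindle genes kept the same order of groups, at 6.11 to 6.27, 6.09 to 6.71, 8.99 to 9.55, 9.62 to 10.65 and 10.79 to 11.00.

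**Figure D5:**
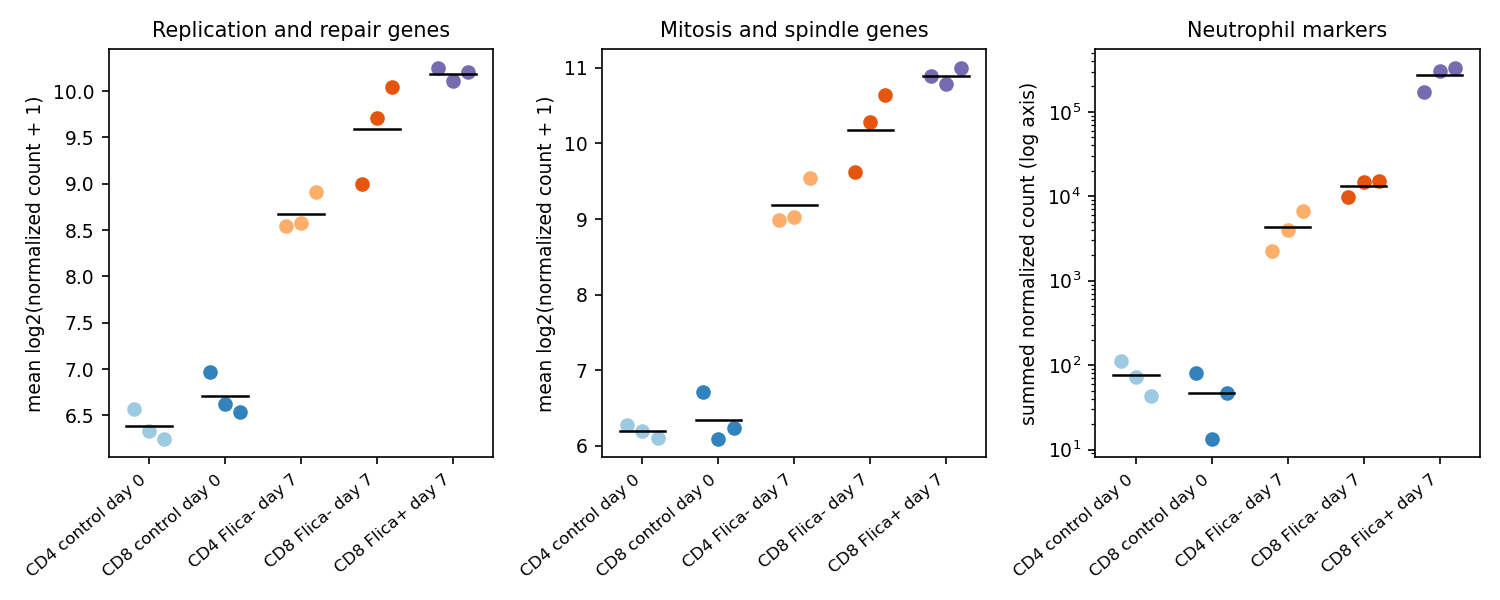
Mean log2 level of the replication and repair genes (left), mean log2 level of the mitosis and spindle genes (middle) and summed normalized count of the neutrophil markers on a log axis (right) in each of the 15 libraries, with a bar at each group's mean. The 3 panels rise from control to CD4 Flica-negative, CD8 Flica-negative and CD8 Flica-positive libraries, the neutrophil markers to 172198 or more in the last.

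Levels between genes were compared per kilobase of exon. In CD8 Flica-negative cells the mean was highest for Mcm5, at 941 normalized counts per kilobase, followed by Rrm2 at 913, E2f2 at 882, Uhrf1 at 626 and Lig1 at 549.7. Mcm5, Rrm2 and E2f2 lay closer to each other than the spread of their libraries. Exo1 was the lowest at 32.4. In Flica-positive cells Rrm2 was first, at 1737 ± 59.4 normalized counts per kilobase (SD, n = 3).

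For other genes of the pathway, too, having a row depended on a change past the tables' thresholds. Of 73 further replication and repair genes 20 had a row, and 19 of these were higher in CD8 Flica-negative cells than in control, beside 37.6% of the listed genes, and 16 in CD4 Flica-negative cells, beside 31.6%. The largest CD8 rises were of Neil3, a DNA glycosylase, at 4.39 ± 0.55 on the log2 scale, and Ccna2, the S phase cyclin, at 4.10 ± 0.38. In CD4 cells Neil3 rose by 3.46 and Ticrr, which helps to load CDC45, by 3.27. In CD4 cells 11 of the 20 were lower at day 7 than in CD8 cells, beside 12.7% of the listed genes, with the largest differences for Chtf18, an alternative clamp loader subunit, at -1.36 and Chek1, the checkpoint kinase, at -1.20. In Flica-positive against Flica-negative CD8 cells 4 were higher, a share close to the 21.1% of the listed genes, with Dna2, a nuclease and helicase, at 1.01 and Eme1, a subunit of a junction nuclease, at 0.97.

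Mitosis genes, which act after replication in the cycle, were subject to the same thresholds of the tables. They were higher in 29 of 29 cases in both lineages, beside 37.6% of the listed genes in CD8 and 31.6% in CD4 Flica-negative cells. Their median log2 change was 3.88 in CD8 and 3.24 in CD4 Flica-negative cells, beside 0.69 and 0.14 for the listed genes. Ccnb2, a mitotic cyclin, changed by 5.49 in CD8 and 4.27 in CD4 cells, Aurkb, a mitotic kinase, by 5.15 in CD8 cells and Nuf2, a kinetochore protein, by 4.20 in CD4 cells. Of the 29 genes 27 were lower in CD4 than in CD8 cells at day 7, beside 12.7% of the listed genes. The largest differences were of Birc5, a partner of Aurora B, at -1.26 and Plk1, a mitotic kinase, at -1.24. How far this count depended on single libraries was not tested. Between Flica-positive and Flica-negative cells 4 passed, a smaller share than the 21.1% of the listed genes, with Anln, an actin-binding protein of cytokinesis, at 1.33 and Plk1 at 1.01. The medians of both gene groups were close there, at 0.66 for the mitosis genes and 0.56 for the replication genes.

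Cell cycle inhibitors had rows for 5 of 16 genes. Cdkn1a, the p21 inhibitor of cyclin-dependent kinases, was at 28.2, 33.1 and 2.89 normalized counts in CD8 control and 460.2, 895 and 979 in CD8 Flica-negative cells, a change of 5.17 ± 0.64 on the log2 scale. It was higher still in CD4 Flica-negative cells, at 1650.4, 1931 and 1462. The difference between the day 7 lineages was 1.11 ± 0.24 (adjusted p = 0.0021), opposite in sign to those of the replication genes that passed. Cdkn2a, which encodes p16 and ARF, was at 0 in all 3 CD4 control libraries and in 2 of 3 CD8 control libraries, and at 104, 115 and 68.9 in CD4 and 120.4, 183 and 223 in CD8 Flica-negative cells. Foxo1, a factor of quiescence, fell by 1.42 ± 0.15 on the log2 scale in CD8 and by 1.76 in CD4 cells. The Flica-positive cells had 1702, 1672 and 2357 normalized counts of it, below every other library.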

How the data were processed

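RNA of 15 libraries of FACS-sorted mouse T cells was read by paired-end sequencing. Per the labels and the submitters' processing notes, reads were aligned with STAR 2.7.1a to GRCm38 and compared with DESeq2. The deposited tables, 4 in all, hold raw counts of the 15 libraries, made by the authors. The authors' other columns hold, per gene, a mean signal of normalized counts (baseMean), log2 fold changes and their errors, a test statistic (score) and p-values, deposited by the authors for their own comparisons. Only baseMean was used, to recover the size factors of the libraries. The authors' enrichment lists were not used. Since each table lists only genes past the authors' thresholds, the tables were joined into 4567 genes, of which 4423 had a symbol.

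Normalized counts are counts divided by the size factors. Each comparison of 2 groups was fitted with edgeR 4.0.16 (quasi-likelihood, R 4.3.3) over the listed genes with at least 1 count, and p-values were adjusted by Benjamini-Hochberg over those genes, with a threshold of 0.05. Background shares are of the listed genes, which the authors chose for change, and not of the transcriptome. The difference of the responses was an interaction term over 4 groups. Errors of log2 changes are the change divided by the square root of its F statistic, and intervals are at 95%. The fits were tested on simulated counts with 200 genes changed 4-fold. Of these, edgeR called 142 for CD8 Flica-negative cells over control and 119 for the difference of the responses. A difference that did not pass is thus not a sign of equal responses. P-values measure the spread between these pooled sorts. Alternatives were TMM scaling, DESeq2 1.42.0, a mean of at least 10 normalized counts, a replicate block, 1 fit over all 15 libraries and leaving out each library. The TMM factors were computed over the listed genes alone. Per-kilobase levels used the union of GENCODE M21 exons, and promoter sequences came from RefSeq (GRCm38.p6). The 58 genes, the other lists and the tests were chosen with earlier results of these data known. Genes are named by role, with full statistics for the largest and smallest change of a role and for those passing where most did not, and from other lists the 2 largest rises and falls. A few genes beside these were chosen after their values were seen.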

Additional observations from a re-analysis of the deposited data

Results flagged for a closer look

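Of the 32 replication and repair genes, 2 had responses that differed between CD4 and CD8 Flica-negative cells by the interaction term of edgeR's quasi-likelihood test. Over the listed genes the difference, CD4 minus CD8, passed below 0 for 4.6% and above 0 for 5.65%, so the count of 2 is near the background. E2f2, an activating E2F, rose less in CD4 cells, with a difference of -1.37 ± 0.26 on the log2 scale (adjusted p = 0.00209). Its CD4 control libraries were above its CD8 control libraries, while its CD4 day 7 libraries were below its CD8 day 7 libraries. Lig1, the replicative ligase, also rose less in CD4 cells, with a difference of -1.39 ± 0.36 (adjusted p = 0.0169). For Lig1 the control libraries of the lineages were close, and the day 7 libraries of the lineages did not overlap. Neither gene passed with TMM scaling, and Lig1 did not pass without CD8 Flica-negative replicate 2. The neutrophil marker sum was also higher in the CD8 than in the CD4 day 7 libraries, and its part in these differences was not tested.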

How the results depend on the processing

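No named difference that passed the threshold changed direction under the alternatives run. Of those that did not pass, 13 of the 32 fitted differences of Flica-positive over Flica-negative cells fell below 0 with TMM, among them E2f2 at -0.40 and Brip1 at -0.51, and Brip1 was also at -0.038 with a replicate block and between -0.37 and 0.18 on leaving out 1 library, below 0 without replicate 1 of either group. In CD8 Flica-negative cells over control 31 to 32 of the 32 genes passed under every alternative, and in CD4 cells 29 to 32. For Flica-positive over Flica-negative CD8 cells, the count of 2 became 0 with TMM, 5 with DESeq2 (with E2f8, Gins1 and Rrm1 added), 13 with a replicate block and 0 to 8 on leaving out 1 library. With the block 1026 of the 4478 listed genes were higher in Flica-positive cells, and 946 without it. For CD4 below CD8 Flica-negative cells, the count of 27 became 10 in 1 fit over all 15 libraries and 11 to 30 on leaving out 1 library. Between control cells, the count of 2 lower genes became 1 with TMM, 1 with DESeq2, 1 in the fit over all libraries, 0 with the filter on low means and 0 to 2 on leaving out 1 library. For the smaller CD4 response, the count of 2 became 0 with TMM and 1 to 4 on leaving out 1 library. The cause was not tested. The sources used here do not say whether libraries with the same number came from the same pool of mice, and their deviations did not all correlate above 0.1, so no pairing was used. Correlations of same-numbered deviations over 2202 genes were 0.170, 0.0466 and 0.168 for Flica-positive against Flica-negative cells, and 0.216, 0.0738 and 0.247 for CD4 against CD8 Flica-negative cells, where each library correlated best with its own number, and the block moved no other count of members named above by over 1.5 times. Of 700 values of 62 named gene comparisons under alternatives, 653 kept their side of the threshold and direction, 42 kept direction only and 5, those of E2f2 and Brip1 above, turned. Control levels of a few reads limit the folds of E2f7, Mcm10, Gins1 and Dtl.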
